A study of Mus musculus with 6 samples.

Results

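The mitochondrial ribosomal proteins were followed in quadriceps muscle of tumour-bearing mice. Members were all genes whose symbol in the array annotation is Mrpl or Mrps followed by a digit, and where a gene had several probes the brightest by its 6-array mean was read. This gave 76 of 19057 annotated genes, 50 counted with the large and 26 with the small subunit of the mitochondrial ribosome. Mrps30 and Mrps18a were counted with the large subunit, where their proteins sit despite their names. Of the 76 genes, 72 were among the 10196 genes that passed the detection filter (detection p below 0.05 on at least 2 arrays) and were tested. Mrpl45 was detected on 1 array, SKRC39 replicate 1, and Mrps14, Mrpl19 and Mrpl32 on none, so those 4 genes were not tested. Mrpl41 and Mrps36 carry no probe in the annotation used here.

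The mice were NOD-SCID, which lack working T and B cells, and each had received 5000000 human renal cancer cells under the skin 22 days before the muscle was taken. One line, RXF393, is labelled cachectic and the other, SKRC39, is not; no mouse without a tumour was included, so every comparison is between tumour lines. Expression was read on 6 Illumina MouseWG-6 v2.0 beadchip arrays. The design text speaks of 3 mice and of 6 RNA samples, and leaves unsaid whether 3 is the number for each line, so p-values measure the spread between these RNA samples, whatever animals they came from.

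On 2 of the 6 arrays the labels conflict. The array titled RXF_1 is described as SKRC39 muscle in its other labels, and the array titled SKR_3 as RXF393 muscle. Both were left out of the groups and are given apart. The comparison therefore rested on SKRC39 replicates 1 and 2 and RXF393 replicates 2 and 3, numbered by title. The share of all probes detected was 37.7% and 33.7% on the SKRC39 arrays, 33.7% and 30.9% on the RXF393 arrays, 36.5% on the array titled RXF_1 and 30.3% on that titled SKR_3. Of the 76 members, 72 and 72 were detected on the SKRC39 arrays, 71 and 67 on the RXF393 arrays, 72 on the array titled RXF_1 and 67 on that titled SKR_3. All 5 skeletal muscle markers (Ckm, Acta1, Myh4, Mb and Tnnt3) were detected on every array. Markers of slow fibres stood apart on the array titled RXF_1, where Tnnc1 read 7.35 against 14.69 and 14.88 on the SKRC39 arrays and 12.68 and 14.24 on the RXF393 arrays (log2 intensity).

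Mitochondria keep their own ribosome, which translates the few messages of the mitochondrial genome, all of which encode core subunits of the respiratory chain and ATP synthase. Its RNAs come from the mitochondrial genome, whereas every protein of it is encoded in the nucleus, made in the cytosol and imported. Some of these proteins have counterparts in bacterial ribosomes and others are found only in mitochondria. Skeletal muscle is rich in mitochondria, and its nuclear genes for mitochondrial proteins are known targets of the NRF1, GABP (an ETS-family factor) and YY1 transcription factors and of PGC-1 co-activators acting with the oestrogen-related receptor alpha.

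Promoters are shown for 5 members, since the genes to which they belong recur below. Mrps11 and Mrpl46 are divergent neighbours and were both among the members with the smallest p-values, Mrpl12 and Mrpl34 were in the same group and carry an NRF1 and an ETS motif, and Mrps12, a protein of the decoding centre, carries an ETS and a YY1 motif. Each window runs from 250 bases before to 50 bases after a transcript start in RefSeq (build GRCm38.p6), 5′ to 3′ on the gene's strand, with motif letters in capitals. The windows are chr7:78782881-78783180 on the plus strand (Mrps11), chr7:78783040-78783339 on the minus strand (Mrpl46), chr7:28741772-28742071 on the minus strand (Mrps12), chr11:120484387-120484686 on the plus strand (Mrpl12) and chr8:71464676-71464975 on the plus strand (Mrpl34). The Mrps11 and Mrpl46 windows share 141 bases on opposite strands.
Mrps11: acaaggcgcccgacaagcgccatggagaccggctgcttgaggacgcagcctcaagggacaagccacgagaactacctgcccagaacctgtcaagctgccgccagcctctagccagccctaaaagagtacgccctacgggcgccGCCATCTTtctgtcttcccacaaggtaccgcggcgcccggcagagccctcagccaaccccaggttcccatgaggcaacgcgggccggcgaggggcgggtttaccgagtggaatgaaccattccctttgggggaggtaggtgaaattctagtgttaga
Mrpl46: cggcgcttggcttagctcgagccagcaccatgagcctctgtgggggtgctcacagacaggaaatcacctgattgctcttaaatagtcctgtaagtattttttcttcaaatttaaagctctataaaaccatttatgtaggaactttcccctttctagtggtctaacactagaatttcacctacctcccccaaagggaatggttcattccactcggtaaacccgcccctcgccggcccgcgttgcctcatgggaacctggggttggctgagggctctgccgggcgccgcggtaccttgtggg
Mrps12: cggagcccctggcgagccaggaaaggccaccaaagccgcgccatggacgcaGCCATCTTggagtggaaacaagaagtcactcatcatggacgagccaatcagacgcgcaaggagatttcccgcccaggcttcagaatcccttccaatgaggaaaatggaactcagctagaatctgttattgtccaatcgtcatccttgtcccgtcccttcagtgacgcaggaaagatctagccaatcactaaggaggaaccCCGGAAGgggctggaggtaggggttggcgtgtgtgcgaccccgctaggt
Mrpl12: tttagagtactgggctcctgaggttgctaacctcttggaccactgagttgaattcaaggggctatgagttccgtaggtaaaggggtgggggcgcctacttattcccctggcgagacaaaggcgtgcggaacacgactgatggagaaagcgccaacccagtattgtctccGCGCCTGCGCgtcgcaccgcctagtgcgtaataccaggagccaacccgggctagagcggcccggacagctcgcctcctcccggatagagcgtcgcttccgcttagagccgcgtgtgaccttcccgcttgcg
Mrpl34: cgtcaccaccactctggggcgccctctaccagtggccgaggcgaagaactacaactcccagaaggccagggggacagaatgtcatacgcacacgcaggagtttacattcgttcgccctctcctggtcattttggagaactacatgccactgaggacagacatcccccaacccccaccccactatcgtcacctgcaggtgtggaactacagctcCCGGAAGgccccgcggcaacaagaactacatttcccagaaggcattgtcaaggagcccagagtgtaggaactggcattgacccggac

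The motifs searched, on both strands, were GCGCA, any base and GCGC for NRF1, CCGGAAG for ETS factors, AAGATGGC for YY1 and TATAAA for the TATA box. The ETS and YY1 letters can overlap at AAG, which happened in 0 member promoters. The 67 members with a promoter entry had 73 windows, and a gene was counted when any of its windows held the motif. An NRF1 motif lay in the promoters of 13 members (19.4%), against 11% of 8233 genes tested on the arrays and 5.19% of 27025 genes in the promoter table. An ETS motif lay in 26 (38.8%), against 19.1% and 9.93%, and a YY1 motif in 12 (17.9%), against 5.05% and 3.19%. The TATA letters went the other way, at 5 members (7.46%) against 9.64% and 15.7%. At least 1 of the NRF1, ETS and YY1 motifs was present in 43 members (64.2%), against 30.6% of tested genes and 16.4% of all. A letter match is a description of these windows and not evidence of binding in this muscle.

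**Figure D1:**
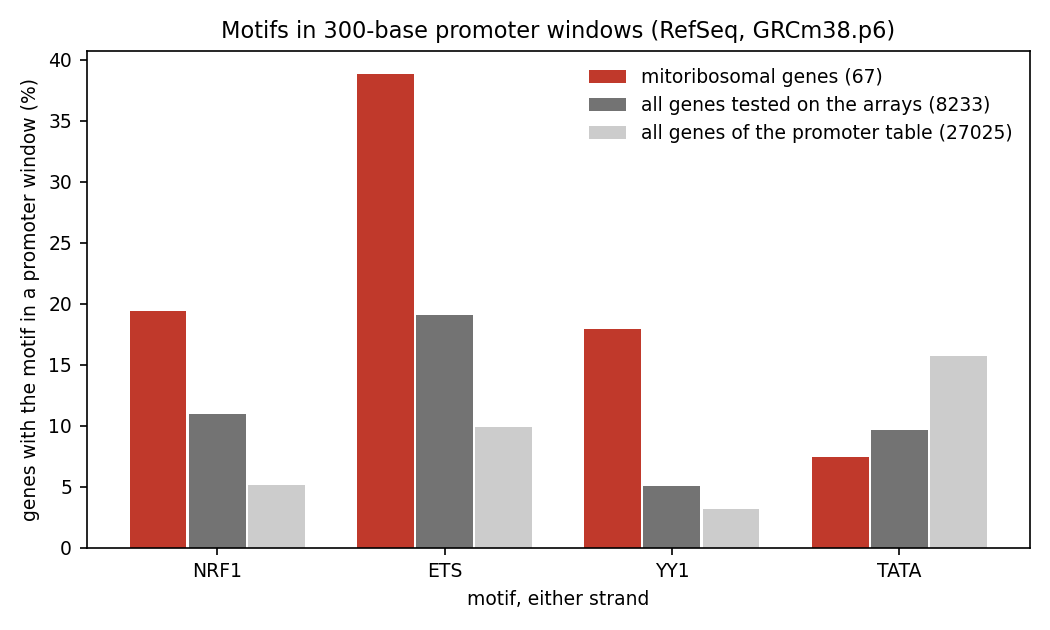
Share of genes (%, from 0) whose promoter window holds each motif on either strand, for the 67 mitoribosomal genes with an entry, the 8233 genes tested on the arrays and all 27025 genes of the RefSeq promoter table. Members are above both other sets for NRF1 (19.4%), ETS (38.8%) and YY1 (17.9%) and below them for TATA (7.46%).

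Head-to-head arrangement was also frequent. A start site on the opposite strand within 1000 bases upstream was present for 25 of 67 members (37.3%), 18.7% of tested genes and 12.3% of all genes in the table. Neighbours that also serve mitochondrial gene expression included Mrps11 and Mrpl46, with starts 42 bases apart, Mrpl43 and Twnk, the mitochondrial DNA helicase, 116 bases apart, and Mrps12 and Sars2, the mitochondrial seryl-tRNA synthetase, 147 bases apart. Of 16 distinct pairs with both genes tested, 12 (75%) had log2 differences of the same sign, against 205 of 381 such pairs (53.8%) over all genes. Both genes were detected on all 4 arrays in 8 of these pairs, of which 6 (75%) had the same sign, against 57.6% of 257 pairs over all genes.

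With 2 arrays a group, no mitoribosomal gene passed the test between the tumour lines (limma, Benjamini-Hochberg adjusted p below 0.05 over all 17738 probes). The background was 36 of 10196 genes, 0.353%. Members with a nominal difference all lay on the same side: 10 of 72 (13.9%) had an unadjusted p below 0.05 with lower signal in RXF393 muscle, and 0 with higher signal. Over all genes tested the shares were 6.69% lower, 8.1% higher and 14.8% in either direction, so the members' total was near the background. The split by direction was not tested. The 10 were Mrpl28, Mrpl42, Mrpl34, Mrpl12, Mrps11, Mrps16, Mrpl46, Mrpl48, Mrpl13 and Mrpl18. The count depended on single arrays: without RXF393 replicate 3 it was 1 (with 8.91% of all genes in either direction), without RXF393 replicate 2 it was 17 (25% of all genes), and without SKRC39 replicate 1 it was 6 (7.76%). With arrays scaled to a common median in place of quantiles it was 3, with 15% of all genes. All 3 were lower, against 6.79% of all genes lower. The members did not stay on the same side in every setting. Without the intensity trend in the prior variance 3 of 4 were lower (5.65% of all genes lower). With all 6 arrays grouped by characteristics 23 of 27 were lower (17.6% of all genes lower).

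The log2 difference (RXF393 minus SKRC39, log2 intensity) had a median of -0.17 over the 72 members, with a range of -3.28 to 1.12, and a median of 0.07 over all genes tested. The quartiles of the members were -0.73 and 0.17, and those of all genes -0.56 and 0.63. A negative difference was found for 43 members (59.7%), against 46.5% of all genes. With median scaling the members' median was -0.014 and that of all genes -0.028, with 50% of members and 51.3% of all genes negative, so the offset between members and other genes was not seen on that scale. Those scaling medians were taken over all probes, of which 30.3% to 37.7% were detected on an array. The arrays were thus aligned at undetected signal. Differences above 1 were rare under the quantile scale, at 1 member (1.39%, Mrps2) against 13.9% of all genes, whereas differences below -1 were found for 14 (19.4%) against 14%. Both RXF393 arrays lay below both SKRC39 arrays for 21 members (29.2%), against 20.6% of all genes, and above them for 8 (11.1%), against 28.1%. The members were brighter than most genes, with a median level of 12.07 against 8.46 over all genes tested (log2 intensity). Their median SE was also smaller, at 0.41 against 0.56. The shares of all genes given here and below are not matched for brightness.

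**Figure D2:**
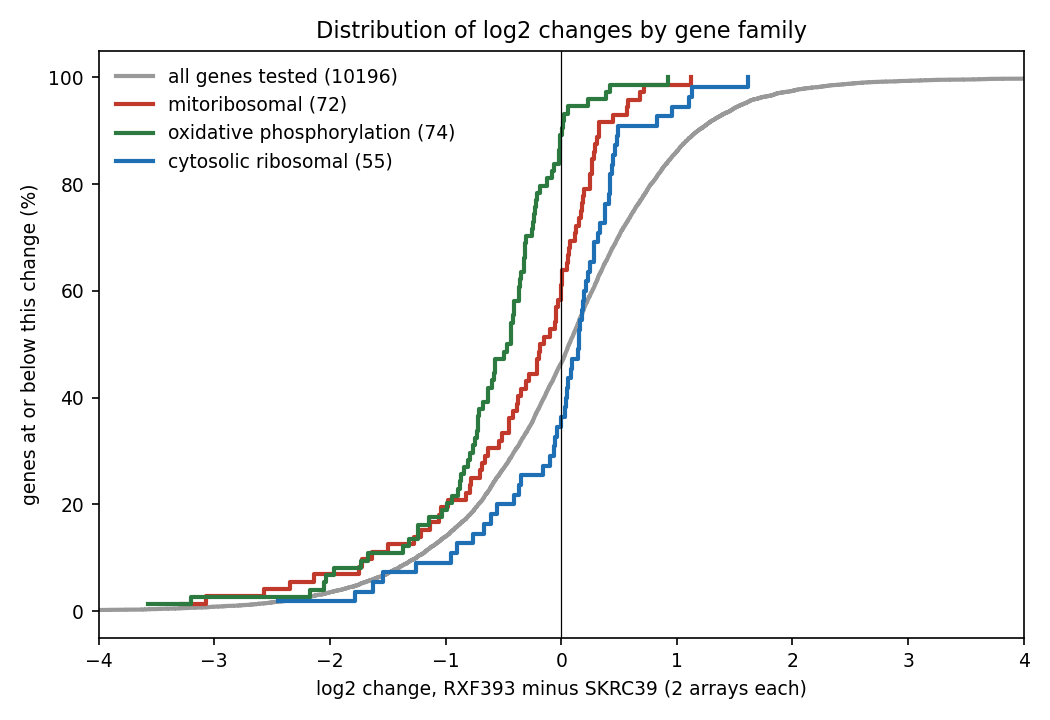
Cumulative share of genes (%) by log2 difference, RXF393 minus SKRC39 (2 arrays each), for 72 mitoribosomal genes, 74 nuclear oxidative phosphorylation genes, 55 cytosolic ribosomal protein genes and all 10196 genes tested. The mitoribosomal curve crosses 0 at 59.7%, between the oxidative phosphorylation curve (89.2%) and those of all genes (46.5%) and cytosolic ribosomal proteins (36.4%).

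Of the 10 members with a nominal p below 0.05, 8 belong to the large subunit, which holds 47 of the 72 tested genes. Mrpl28, a large-subunit protein with a bacterial counterpart, read 12.94 and 13.52 on the SKRC39 arrays and 12.17 and 11.29 on the RXF393 arrays. The groups did not overlap, and the log2 difference was -1.5 ± 0.43 (SE, 2.83-fold, limma adjusted p = 0.243). Mrpl42, a mitochondria-specific protein, read 14.58 and 13.94 against 13.38 and 13.07. Again both RXF393 arrays were the lower, with a log2 difference of -1.04 ± 0.33 (2.05-fold, limma adjusted p = 0.28). Mrpl34 read 12.82 and 12.57 against 11.81 and 11.32, a difference of -1.13 ± 0.37 with no overlap (2.19-fold, limma adjusted p = 0.297).

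Mrpl12 is the mitochondrial counterpart of the bacterial stalk protein that recruits translation factors, and in human cells it also binds the mitochondrial RNA polymerase. It read 13.97 and 14.30 on the SKRC39 arrays and 13.35 and 11.65 on the RXF393 arrays. Both RXF393 arrays were lower, but they lay further from each other than replicate 2 lay from the SKRC39 arrays, and the log2 difference was -1.63 ± 0.54 (3.10-fold, limma adjusted p = 0.302). Of its stalk-base partners, Mrpl10 read 12.61 and 12.44 against 12.66 and 11.69, with overlapping groups. Mrpl11 read 11.22 and 10.74 against 11.25 and 5.57, so that replicate 2 was the highest of the 4 arrays and replicate 3 the lowest. Replicate 3 was below the detection limit for Mrpl11, which was detected on 1 of 2 RXF393 arrays. With that array raised to its lowest detected signal, the mean was at least 5.37-fold lower in RXF393 muscle (limma adjusted p = 0.52), and without replicate 3 the log2 difference was 0.27.

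Mrps11 and Mrpl46 share a divergent start region, shown above. Mrps11, a small-subunit platform protein with a bacterial counterpart, read 10.61 and 11.07 on the SKRC39 arrays and 9.63 and 7.37 on the RXF393 arrays. Mrpl46, a mitochondria-specific protein of the central protuberance of the large subunit, read 12.35 and 12.94 against 11.69 and 11.64. In neither gene did the groups overlap on the brightest probe, but the RXF393 arrays lay close together for Mrpl46 and far apart for Mrps11. The other tested Mrps11 probe read 10.05 and 7.19 against 7.27 and 6.23, with overlapping groups. The log2 differences were -2.34 ± 0.79 for Mrps11 (5.07-fold, limma adjusted p = 0.31) and -0.98 ± 0.37 for Mrpl46 (1.97-fold, limma adjusted p = 0.357).

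Mrps16, a small-subunit protein with a bacterial counterpart, read 12.71 and 13.05 against 12.24 and 10.98. Mrpl48, another central protuberance protein, read 11.87 and 11.66 against 11.04 and 9.05. RXF393 replicate 3 was the lowest of the 4 arrays for both genes and replicate 2 the next, with log2 differences of -1.27 ± 0.48 for Mrps16 (limma adjusted p = 0.354) and -1.72 ± 0.67 for Mrpl48 (limma adjusted p = 0.365). The 3 tested probes of Mrpl48 gave -1.72, -1.91 and -2.15.

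The remaining members with a nominal p below 0.05 were Mrpl13 and Mrpl18, which fall outside the naming rule and were added after their values were seen. Mrpl13 read 13.33 and 13.72 against 12.69 and 12.79, with RXF393 arrays close together and both lower, a log2 difference of -0.79 ± 0.31 (limma adjusted p = 0.368). The other tested probe of Mrpl13, dimmer but detected on all 6 arrays, gave -0.12 with overlapping groups. Mrpl18, which in human cells helps bring cytosolic 5S RNA to mitochondria, read 11.23 and 9.58 against 9.17 and 5.08. It was detected on 1 of 2 RXF393 arrays, and with the undetected array at its lowest detected signal it was at least 7.40-fold lower (limma adjusted p = 0.372). Its other tested probe gave a log2 difference of -0.05, but was dim (5.68 and 6.84 against 5.60 and 6.82) and undetected on RXF393 replicate 2.

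**Figure D3:**
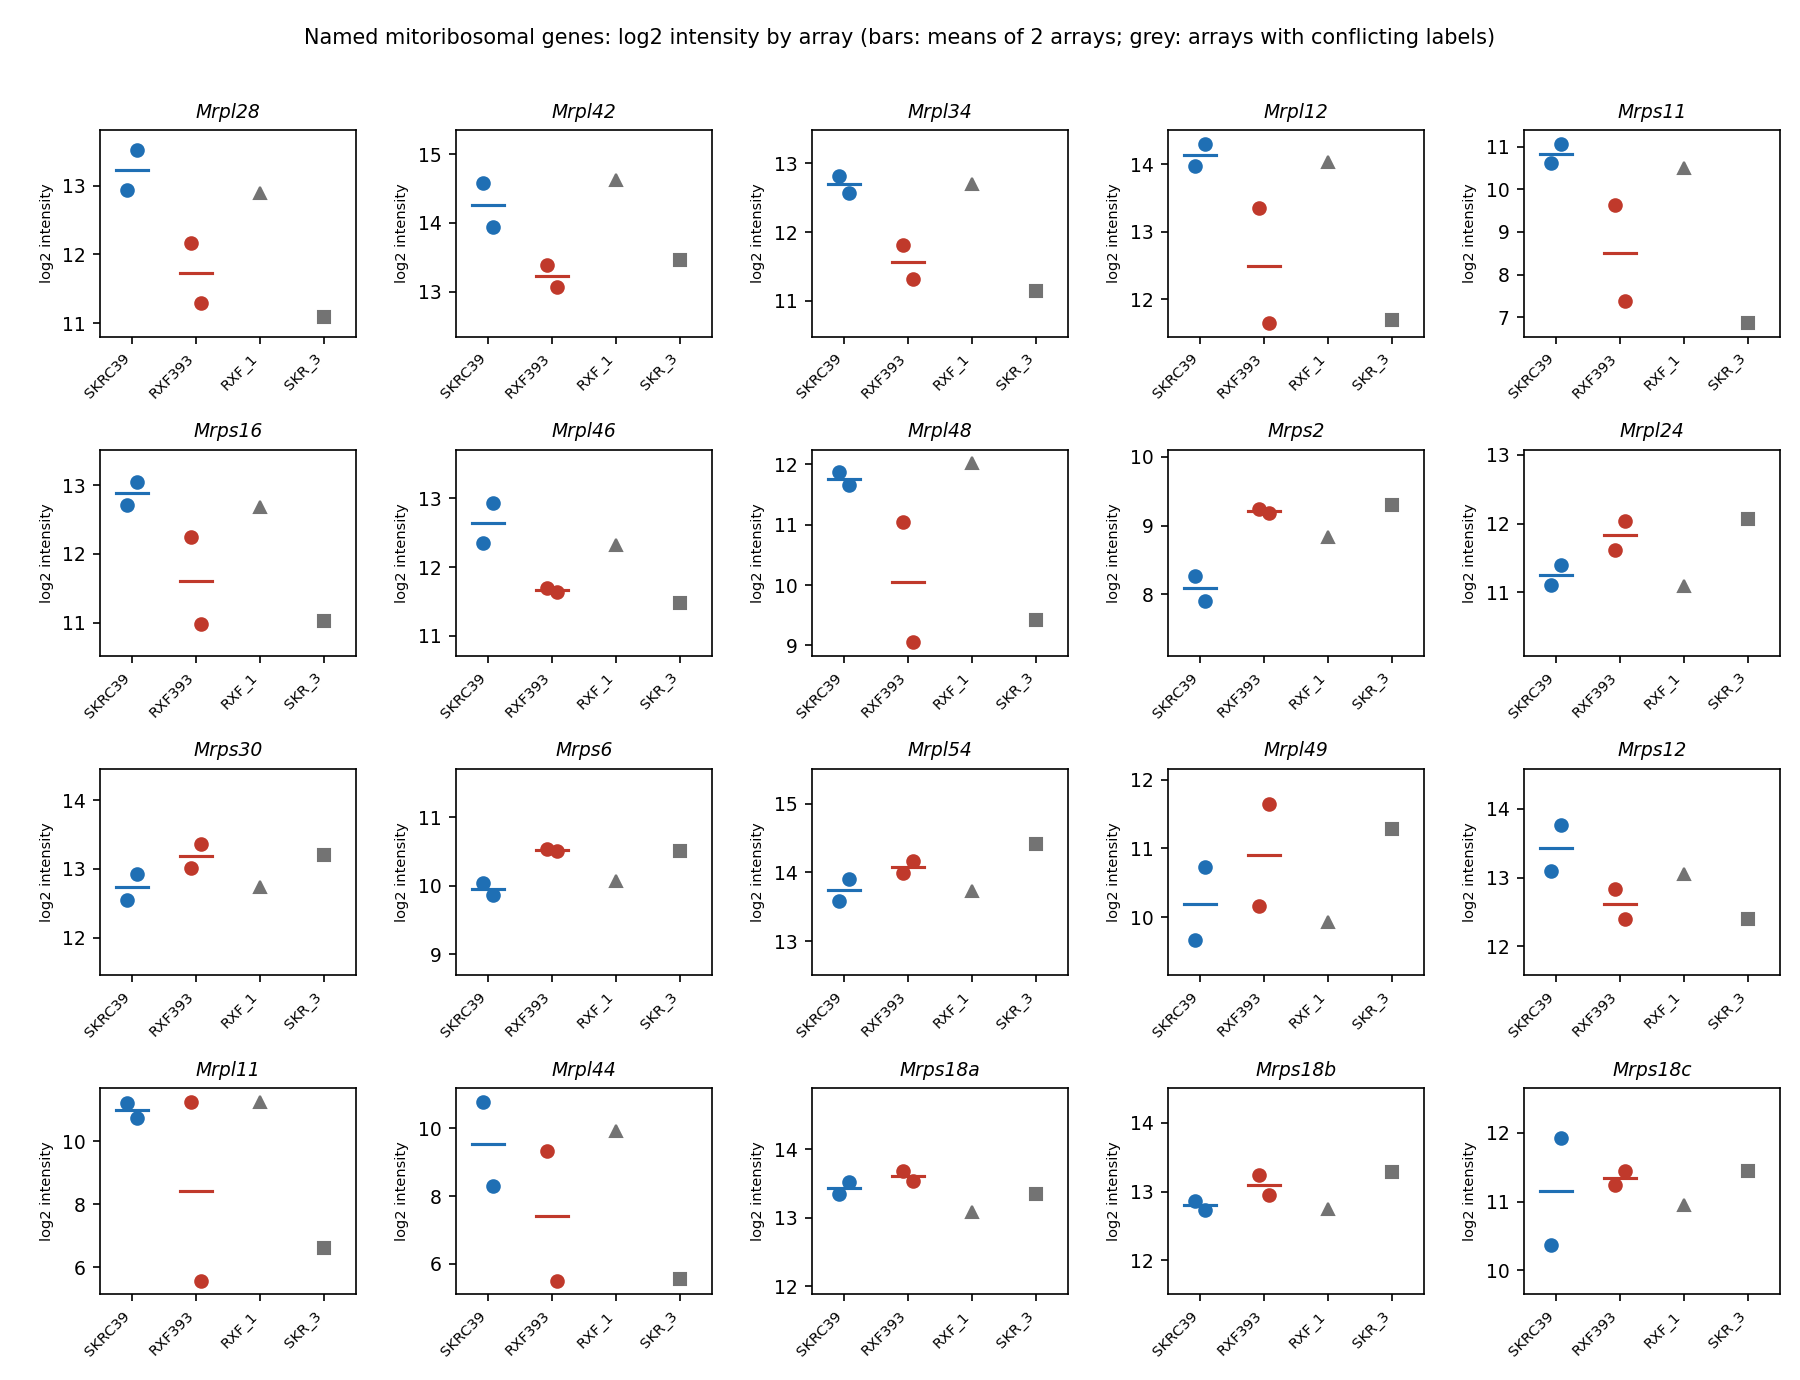
Log2 intensity of 20 named mitoribosomal genes on each array, with bars at the means of the 2 arrays of a group and grey points for RXF_1 and SKR_3 (conflicting labels). For Mrpl28, Mrpl12 and Mrps11 the array titled RXF_1 (12.89, 14.03 and 10.51) sits by the SKRC39 points and that titled SKR_3 (11.09, 11.70 and 6.86) by or below the lower RXF393 point; each panel has its own axis.

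Further members of known function did not pass the test either. Mrps12, the decoding-centre protein, read 13.10 and 13.77 on the SKRC39 arrays and 12.83 and 12.39 on the RXF393 arrays. Both RXF393 arrays were the lower, with a log2 difference of -0.82 ± 0.37 (limma adjusted p = 0.406) and -0.72 from its other probe. Its divergent neighbour Sars2 was detected on 1 SKRC39 array and 0 RXF393 arrays, at 7.56 and 5.22 against 5.35 and 4.77, and no difference is given for it. Mrpl44, a large-subunit protein with a ribonuclease III fold, read 10.79 and 8.31 against 9.33 and 5.49. The groups overlapped, the gene was detected on 1 of 2 RXF393 arrays, and the bound was at least 3.87-fold lower (limma adjusted p = 0.523). Mrpl53, mitochondria-specific, showed the same wide spread, reading 13.76 and 11.38 against 12.06 and 6.92.

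No member with higher signal in RXF393 muscle passed the test or had an unadjusted p below 0.05, and the 6 with the smallest p are given here. Mrps2, a small-subunit protein with a bacterial counterpart, read 8.27 and 7.91 on the SKRC39 arrays and 9.24 and 9.19 on the RXF393 arrays. The groups were apart, and at 1.12 ± 0.59 this was the highest log2 difference among the 72 members (limma adjusted p = 0.466). Mrpl24, an early assembly protein of the large subunit, read 11.11 and 11.40 against 11.62 and 12.04, a difference of 0.58 ± 0.40 (limma adjusted p = 0.546). Mrps30 read 12.55 and 12.93 against 13.02 and 13.36, a difference of 0.45 ± 0.33 (limma adjusted p = 0.566). In Mrpl24 and Mrps30 the groups did not overlap, but the gap between them was no wider than that between replicates.

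Mrps6, with a bacterial counterpart, read 10.04 and 9.86 against 10.54 and 10.51, and Mrpl54, mitochondria-specific, read 13.59 and 13.91 against 13.99 and 14.16. Both genes were higher on both RXF393 arrays, by 0.57 ± 0.46 and 0.33 ± 0.28 (limma adjusted p = 0.595 and 0.609). Mrpl49 read 9.66 and 10.73 against 10.16 and 11.65, with overlapping groups and a difference of 0.71 ± 0.65 (limma adjusted p = 0.638). Its other 3 tested probes were undetected on RXF393 replicate 3 and below the SKRC39 mean on RXF393 replicate 2, so the direction of Mrpl49 depended on the probe.

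The 3 Mrps18 paralogues occupy different sites on the mammalian mitochondrial ribosome. Mrps18a read 13.35 and 13.52 on the SKRC39 arrays and 13.68 and 13.54 on the RXF393 arrays, a log2 difference of 0.17 ± 0.28 (limma adjusted p = 0.801). Mrps18b read 12.87 and 12.73 against 13.24 and 12.95, a difference of 0.29 ± 0.31 (limma adjusted p = 0.687). Its other tested probes gave -1.14 and -0.72, but were undetected on both RXF393 arrays and on SKRC39 replicate 2. Mrps18c read 10.37 and 11.93 against 11.24 and 11.45, with both RXF393 values inside the SKRC39 range. None of the 3 differed by more than its error on the main probe.

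Both subunits had negative medians. The median log2 difference was -0.21 over 47 large-subunit genes, of which 26 were negative, and -0.15 over 25 small-subunit genes, of which 17 were negative. Mrps18a, Mrps18b and Mrps28, for which a bacterial counterpart is uncertain, were left out of the classes that follow. Within the large subunit, the 28 genes with a bacterial counterpart had a median of -0.25 and the 18 mitochondria-specific genes -0.13. Within the small subunit the order was the opposite, at -0.10 for 14 genes with a counterpart and -0.38 for 9 without. Those 9 held 7 negative differences and 4 genes with both RXF393 arrays below both SKRC39 arrays, against 0 above. Over all genes tested 46.5% were negative, 20.6% had both RXF393 arrays below and 28.1% had both above. The differences between these classes were not tested.

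The arrays of a group did not contribute alike. RXF393 replicate 2 lay more than 1 log2 unit below the SKRC39 mean for 3 members (4.17%), Mrpl18, Mrpl28 and Mrps11, against 9.88% of all genes. RXF393 replicate 3 did so for 19 members (26.4%), against 18.8% of all genes, down to -5.65 for Mrpl53, which was detected there. With undetected values at the lowest detected signal the count was 18, against 15.8% of all genes. In the upward direction the members were few on both arrays: more than 1 unit above the SKRC39 mean lay only Mrps2 on replicate 2 (1.39%, against 9.12% of all genes) and Mrpl49, Mrpl51 and Mrps2 on replicate 3 (4.17%, against 22.7%). The 10 members with a nominal p below 0.05 were picked on these same 4 arrays, which largely fixed their separation. They lay below both SKRC39 arrays on each RXF393 array, at -1.23 to -0.64 of the SKRC39 mean on replicate 2. On replicate 3 the 9 that were detected lay at -3.47 to -0.73, and Mrpl18 was undetected, at -4.54 or lower. The median gap between replicates over members was 0.34 for SKRC39 and 0.46 for RXF393, against 0.48 and 0.62 over all genes. As above, all genes include many dimmer than the members, and these counts and gaps are not matched for brightness.

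The arrays with conflicting labels differed from each other for these genes, RXF_1 lying near the SKRC39 mean (median over 72 members -0.015) and SKR_3 below it (-0.21). The array titled RXF_1 lay more than 1 unit below the SKRC39 mean for 0 of 72 members (1.41% of all genes) and above it for Mrps15 alone (1.39%, against 1.54%). The array titled SKR_3 lay more than 1 unit below for 20 members (27.8%, against 19.6%) and more than 1 above for Mrpl49 and Mrps2 (2.78%, against 21.7%). For the 10 members named above, the array titled RXF_1 lay between -0.34 and 0.72 of the SKRC39 mean, and on that titled SKR_3 the 9 detected genes lay between -3.98 and -0.80, with Mrpl18 undetected at -4.47 or lower. Both values stand as measured, and neither array was assigned to a line from them. Grouping all 6 arrays by the characteristics field gave 10 members past the threshold, all lower in RXF393 (limma adjusted p = 0.0146 for Mrpl34 to 0.0376 for Mrpl18), against 18.3% of all genes in either direction and 7.81% lower. These were the same 10 genes, which share 4 arrays with the comparison above and are not independent of it. Grouping by title gave 0 of 72, with 0 at an unadjusted p below 0.05, and 0% and 0.186% of all genes.

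**Figure D4:**
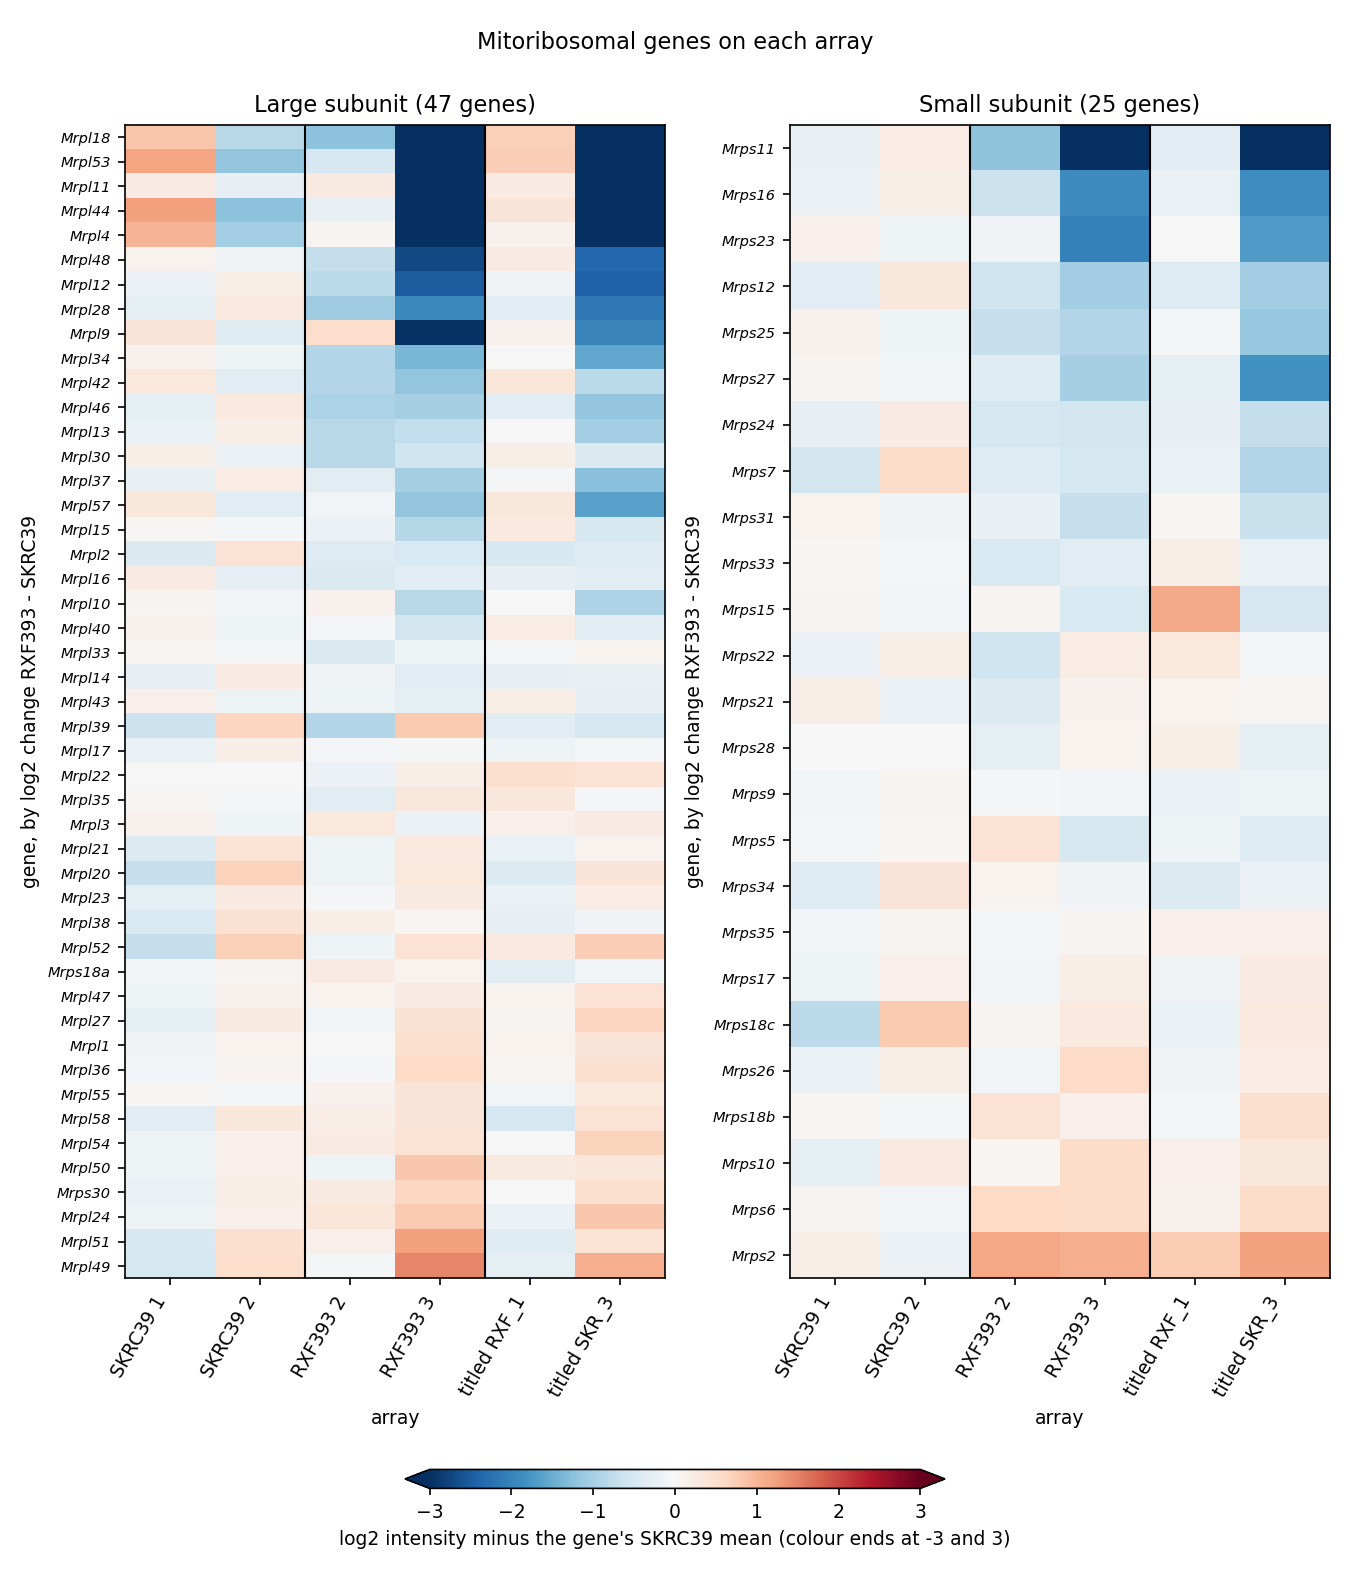
Log2 intensity of the 72 tested mitoribosomal genes on each array minus the gene's mean over the 2 SKRC39 arrays (blue lower, red higher, colours end at -3 and 3), with genes ordered by log2 difference within each subunit. The darkest blue cells are on RXF393 replicate 3 and the array titled SKR_3, where 19 and 20 members lie more than 1 below the SKRC39 mean, against 3 on RXF393 replicate 2 and 0 on the array titled RXF_1.

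Probes of the same gene were compared where more than 1 was tested. In 19 of 27 such members (70.4%) all probes gave the same direction, against 64.1% of 3456 genes. On RXF393 replicate 3 the probes of a gene spread over more than 2 log2 units, relative to the SKRC39 mean, in 7 of 27 members (25.9%, against 26.4% of all genes), and on the array titled SKR_3 in 8 (29.6%, against 24.6%). On RXF393 replicate 2 and the array titled RXF_1 this happened in 0 of 27 members, with 2.14% and 0.347% of all genes. With undetected values raised to each array's lowest detected signal, a step added after the data were seen, the counts were 6 (22.2%, against 22% of all genes) and 5 (18.5%, against 19.9%). On RXF393 replicate 3 the probes of Mrps10, all detected, lay at 1.21, 0.55 and -3.06, and those of Mrps26 at 0.58 and -2.19. For Mrpl43 the brighter probe was at -0.28 while the dimmer was undetected, at -3.68 or lower. For Mrpl37 the brighter was at -1.0 and the dimmer undetected, at -4.20 or lower. Members read from a single tested probe had a median log2 difference of -0.05 (45 genes) and those with more than 1 probe -0.35 (27 genes). The part that probe position or RNA quality plays in this spread was not tested.

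**Figure D5:**
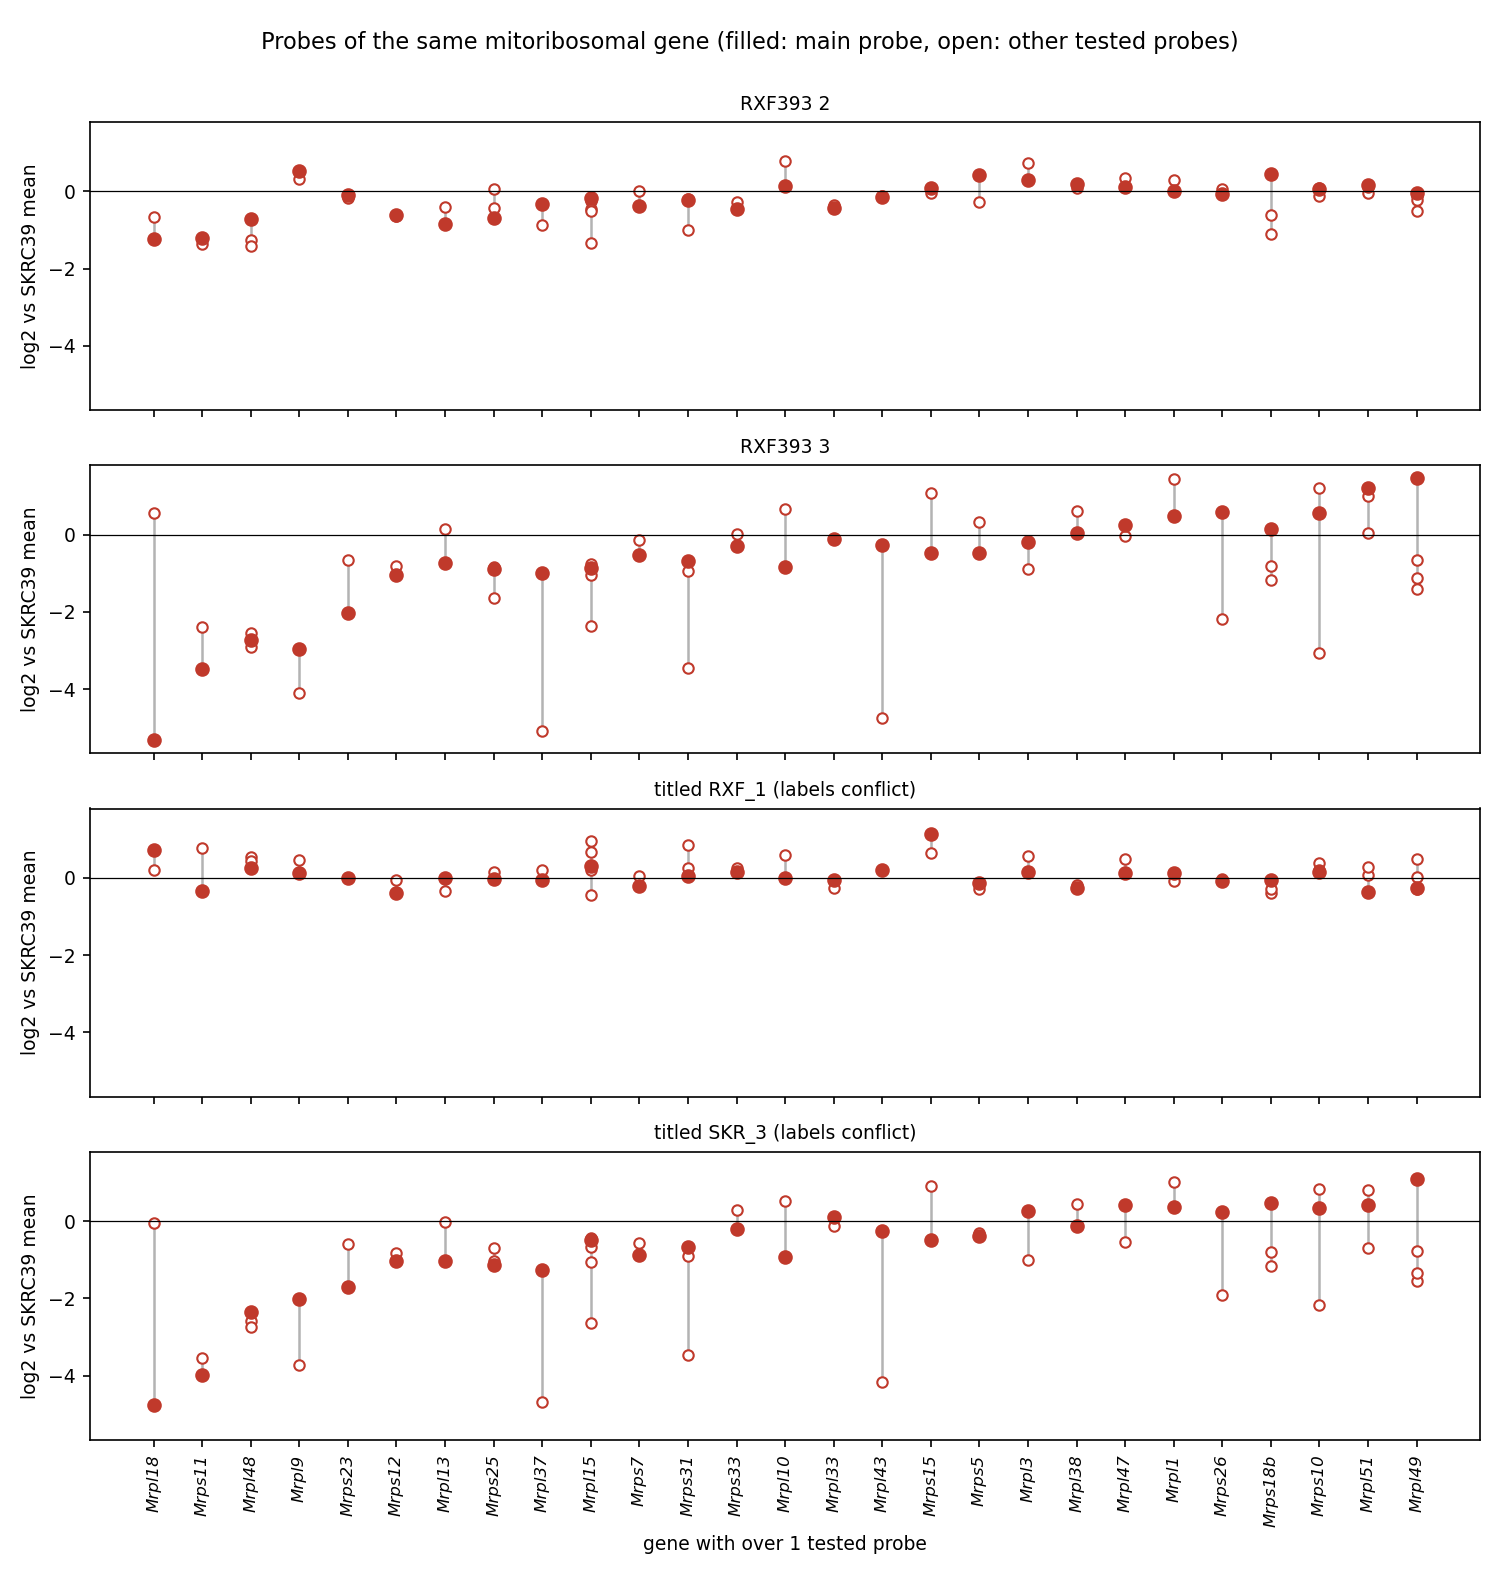
Log2 intensity relative to the SKRC39 mean for each tested probe of the 27 mitoribosomal genes with more than 1, on 4 arrays; filled points are the brightest probe and open points the others, joined by a grey line, with undetected values drawn as measured. Lines longer than 2 units appear for 7 genes on RXF393 replicate 3 and 8 on the array titled SKR_3, and for 0 genes on the other 2 arrays.

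No gene passed the test in 7 further lists either. These covered the rest of the mitochondrial translation apparatus, mitochondrial RNA synthesis and processing, protein insertion and quality control, and regulators of mitochondrial genes. Of 12 tested translation factors 8 were negative, with a median log2 difference of -0.27. The smallest p belonged to Tsfm, the exchange factor of the elongation factor Tufm, which read 10.08 and 9.63 on the SKRC39 arrays and 9.64 and 6.64 on the RXF393 arrays (-1.71 ± 0.98). Tufm differed by -0.39 ± 0.27. Mtfmt, the methionyl-tRNA formyltransferase, was detected on 1 SKRC39 array and 0 RXF393 arrays (5.84 and 4.94 against 4.94 and 4.81). Among 17 aminoacyl-tRNA synthetases and related enzymes the median was -0.11 with 12 negative. Qrsl1 and Gatc, subunits of the glutamyl-tRNA amidotransferase, differed by -1.20 ± 0.44 (limma adjusted p = 0.344) and -0.75 ± 0.35 with no overlap between groups. Gatb, a further subunit of that enzyme, differed by 0.14 ± 0.61 with overlapping groups. Cars2, the cysteinyl-tRNA synthetase, differed by -1.90 ± 0.94 with detection on 1 of 2 RXF393 arrays.

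Among 24 tested genes for ribosome assembly and rRNA modification the median was -0.21, with 14 negative. Mterf3, a factor needed for ribosome assembly, read 9.0 and 8.99 on the SKRC39 arrays and 10.65 and 11.43 on the RXF393 arrays. It had the smallest p of the list and was higher on both RXF393 arrays, by 2.05 ± 0.52 (limma adjusted p = 0.199). Rpusd4, a pseudouridine synthase, differed by 1.01 ± 0.44, and Mtg1, an assembly GTPase, by -1.58 ± 0.69. The 4 tested mitoribosomal proteins with other symbols were all negative with a median of -0.18, with -0.59 ± 0.26 for Chchd1 and -0.02 ± 0.29 for Dap3, and Ptcd3 was detected on 0 RXF393 arrays.

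Genes for mitochondrial RNA synthesis and processing had a median of 0.11 over 23 tested genes, with 10 negative. Elac2, which trims the 3′ ends of tRNAs, Mterf1a, a mitochondrial transcription termination factor, and Trmt10c, a subunit of mitochondrial RNase P, differed by 1.39 ± 0.46, 1.85 ± 0.64 and 1.80 ± 0.73. Both RXF393 arrays were higher than both SKRC39 arrays for these 3 genes, with limma adjusted p = 0.3, 0.314 and 0.376. Among 11 genes for insertion and quality control of newly made proteins the median was -0.32, with Clpx and Clpp, the subunits of the matrix ClpXP protease, higher by 1.66 ± 0.52 and 1.03 ± 0.38 (limma adjusted p = 0.28 and 0.348), and Letm1 at -1.5 ± 0.82.

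Regulators of mitochondrial genes were read beside the members. Ppargc1b, the PGC-1beta co-activator, read 11.11 and 11.16 on the SKRC39 arrays and 9.46 and 9.27 on the RXF393 arrays. Esrra, the oestrogen-related receptor alpha, read 12.28 and 13.08 against 11.00 and 11.43. For both genes all RXF393 values lay below all SKRC39 values, with log2 differences of -1.77 ± 0.46 (limma adjusted p = 0.21) and -1.47 ± 0.43 (limma adjusted p = 0.25). The other PGC-1 family genes listed had overlapping groups. Ppargc1a read 10.89 and 10.09 against 10.48 and 9.68, a difference of -0.41 ± 0.54, and Pprc1 differed by 0.08 ± 0.83. Ppara was detected on 1 of 2 RXF393 arrays and 0 of the SKRC39 arrays, at 5.48 and 7.68 against 5.20 and 4.89. Of the factors whose motifs were searched, Nrf1 differed by 0.84 ± 0.57 and Gabpb1, a GABP subunit gene, by 0.84 ± 0.49. Gabpa, the other GABP gene listed, was detected on 1 of 2 SKRC39 arrays, at 6.15 and 4.77 against 6.22 and 6.40. Yy1 was detected on no array. Over the 8 tested regulators the median was 0.46, with 3 negative, and 0 passed the test.

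The cytosolic ribosomal proteins and the respiratory chain gave the nearest comparisons. Over 55 tested cytosolic ribosomal protein genes the median log2 difference was 0.15, 36.4% were negative and 0 had an unadjusted p below 0.05. Over 74 nuclear genes for oxidative phosphorylation subunits the median was -0.45, 89.2% were negative and 23 were lower at an unadjusted p below 0.05. The mitoribosomal median of -0.17 and share of 59.7% lay between the 2 families. The difference between families was not tested.

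No marker of another cell type passed the test, but some lists lay on the same side in all their tested genes. The 4 tested neutrophil markers of 9 (S100a8, S100a9, Retnlg and Chil3) were all higher in RXF393 muscle, with a mean log2 intensity of 5.62 and 6.56 on the SKRC39 arrays and 8.37 and 9.80 on the RXF393 arrays, whereas Camp, Elane, Ltf, Mpo and Ngp were detected on no array. Retnlg and Chil3 were detected on neither SKRC39 array. The 6 fibroblast markers were all lower, at 9.18 and 9.65 against 7.92 and 7.53, with 4 and 2 of them detected on the RXF393 arrays. The means of both lists include these undetected values. The 3 tested erythroid markers were higher, at 11.70 and 10.33 against 13.18 and 13.50. Of the 4 slow-fibre markers, whose fibres are rich in mitochondria, 3 were lower on both RXF393 arrays, with a list mean of 11.37 and 11.20 against 9.91 and 10.87. Macrophage markers went both ways (3 of 5 negative), and in 0 of 4 tested endothelial markers were the groups apart. Their part in the mitoribosomal values was not tested. In RNA from whole muscle, fewer cells of a type and less RNA per cell cannot be told apart.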

How the data were processed

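Quadriceps RNA was read on 6 Illumina beadchips. The deposited scanner table gives, per the file headers, the linear intensity of every probe before normalization, with a detection p-value for each. The second table holds intensity that the authors quantile-normalized (GenomeStudio Gene Expression module 1.9.0; source: the labels' design text). The annotation's genome build is not given in the sources used here.

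Here neqc (limma 3.58.1, R 4.3.3) was run on the scanner table: normexp background correction informed by detection p-values, an offset of 16, quantiles across the 6 arrays, then log2. The offset makes differences of dim probes too small. The detection filter (p below 0.05 on 2 or more arrays) left 17738 probes and 10196 genes; the number of arrays limits the precision. lmFit and eBayes, with the prior variance trended on intensity, compared 2 RXF393 with 2 SKRC39 arrays, with Benjamini-Hochberg adjustment over all kept probes, and was tested on simulated data. Of 45281 probes, 34885 carry 1 gene symbol, 18 several, and 10378 are not listed in the platform annotation and stay unnamed. All 76 members matched RefSeq by gene ID.

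Members and lists were chosen with earlier results of these data known. Named members were the 8 with the smallest p among negative and the 6 among positive differences, plus Mrpl12, Mrps12, Mrpl11, Mrps30, Mrpl44 and the Mrps18 genes; from each of the other lists the 3 with the smallest p were named. Mrpl10, Mrpl13, Mrpl18, Mrpl37, Mrpl43, Mrpl53, Mrps10 and Mrps26 were added after their values were seen. So were the head-to-head neighbours, the members counted by array, and Gatb, Ppargc1a, Pprc1, Nrf1, Gabpa, Gabpb1 and Yy1 from the other lists. Promoters came from RefSeq, GRCm38.p6. Alternatives covered normalization, offset, detection filter, probe choice, trend, label field, replicate block and each array left out.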

Additional observations from a re-analysis of the deposited data

How the results depend on the processing

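With 2 arrays a group, 1 array can set a result. The number of members past the adjusted threshold was 0, also at an adjusted p below 0.10, with the authors' quantile-normalized values, median scaling, an offset of 50, other filters, the mean of a gene's probes, no intensity trend and grouping by title; it was 10 by characteristics, and 0 to 7 with each array left out (7 without RXF393 replicate 2, when 4.41% of all genes passed, and 0 without each of the others). The number at an unadjusted p below 0.05 was 10 (14.8% of all genes), with 3 under median scaling (15%), 4 without the trend (13.2%), 0 by title (0.186%), 27 by characteristics (37.5% of members, 39.3% of all genes) and 1 to 17 with each array left out (7.76% to 25% of all genes). The median log2 difference was -0.17, with -0.014 under median scaling, -0.073 for probes detected on all 6 arrays, -0.048 by title and -0.30 to -0.022 with each array left out. The number of negative differences ran from 36 under median scaling to 53 without SKRC39 replicate 1. The causes were not tested.

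The description numbers gave a replicate block. Same-numbered arrays deviated together with a correlation of 0.51 in both pairs of the 4 arrays, which 2 pairs make equal by construction, and with 0.49, -0.12 and 0.46 over all 6 arrays by characteristics, so the numbers were not taken as a pairing. With the replicate block 1 member (Mrpl18) passed on 4 arrays, with 3.49% of all genes, and 15 had an unadjusted p below 0.05, with 26.3% of all genes. Of these 15 members 14 were lower, against 12.6% of all genes lower. On 6 arrays by characteristics with the block 17 passed, 16 of them lower, with 30.5% of all genes, and 30 (41.7%) had an unadjusted p below 0.05, with 45% of all genes.

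Directions turned in a few named genes. Mrpl49 was at -0.33 as the mean of its probes and from -0.032 (without RXF393 replicate 3) to 1.46 with each array left out, and Mrps18b at -0.52 as the mean of its probes. Both probe means include probes that were undetected on arrays of the comparison. By title, Mrpl54 was at -0.015, Mrpl44 at 0.031 and Mrps18c at -0.038. With each array left out, Mrps18c ran from -0.58 (without SKRC39 replicate 1) to 0.97 and Mrpl11 from -5.41 to 0.27 (without RXF393 replicate 3). With undetected values raised to the lowest detected signal, an alternative chosen after seeing the data, members with probes more than 2 apart on the array titled SKR_3 went from 8 to 5. Low signal on RXF393 replicate 3 limits Mrpl18, Mrpl11, Mrpl44, Mrpl4 and Mrpl57 to bounds.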
